A study of Mus musculus with 17 samples.

Results

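The megalin-cubilin receptor system was followed through 8 genes, Lrp2, Cubn, Amn, Dab2, Clcn5, Ocrl, Folr1 and Lrpap1, out of 35971 genes with transcripts in the deposited mouse kidney tables. The members were taken by name, and the values of all annotated transcripts of each gene were summed in all 17 libraries. All 8 passed the filter on low counts that left 17011 genes for testing. They lie on GRCm38 at chr2:69424340-69586065 (Lrp2, minus strand), chr2:13276338-13491813 (Cubn, minus), chr12:111271095-111276426 (Amn, plus), chr15:6299788-6440712 (Dab2, plus), chrX:7153810-7319358 (Clcn5, minus), chrX:47912387-47965868 (Ocrl, plus), chr7:101858331-101870788 (Folr1, minus) and chr5:35091501-35105766 (Lrpap1, minus).

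Megalin, the product of Lrp2, is a giant receptor of the LDL receptor family on the brush border of the proximal tubule, where it takes filtered proteins and carrier-bound vitamins back from the primary urine. It works with cubilin (Cubn), which has no transmembrane segment and is held at the membrane by amnionless (Amn). The loaded receptors are gathered into clathrin-coated pits by the adaptor DAB2, and the endosomes that receive them depend on the chloride-proton exchanger ClC-5 (Clcn5) and the inositol polyphosphate 5-phosphatase OCRL. Folate receptor alpha (Folr1) takes up folate at the same brush border, and the receptor-associated protein RAP (Lrpap1) is a chaperone that escorts megalin and its relatives through the endoplasmic reticulum. Loss of human CLCN5 or OCRL function causes Dent disease or Lowe syndrome, in which low-molecular-weight proteins are lost into the urine.

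The study asked whether Hif1α and Hif2α, the hypoxia-inducible transcription factors, are needed for the kidney tumors that the chimeric protein PRCC-TFE3 causes in mice, which were sacrificed at 8 months of age. Whole kidney RNA was sequenced from 5 groups. The 4 Cre(-) mice carried the lsl-PRCC-TFE3 allele, a knock-in behind a stop cassette, but no KSP-Cre, and Cre(-) replicates 1 and 2 also carried HIF1a f/f whereas replicates 3 and 4 had no floxed Hif allele. The 3 PRCC-TFE3 KI mice carried lsl-PRCC-TFE3 and KSP-Cre, a Cre under the promoter of Cadherin 16, which is active in kidney tubule epithelium. The 4 Hif1α KO mice carried HIF1a f/f as well, the 3 Hif2α KO mice HIF2a f/f, and the 3 DKO mice both floxed alleles, so that every knockout group also carried lsl-PRCC-TFE3 and KSP-Cre. No group had KSP-Cre without the knock-in allele, and Cre and PRCC-TFE3 expression cannot be told apart. In whole kidney RNA, fewer cells of a type and less RNA per cell cannot be told apart either. The paper described tumors in KI kidneys, reduced tumor development in Hif1α KO and DKO kidneys and no inhibition in Hif2α KO kidneys. The part of tumor tissue in the members' values was not tested.

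Library totals ranged from 16504419 to 24668827 counts, and the smallest amount taken as detectable, 3 counts, equalled 0.117 to 0.206 CPM, far under every member. CPM, counts brought to a common library total, are scaled by TMM, which sets library sizes so that most genes do not shift. The TMM factors were 0.793 to 0.833 in the Cre(-) libraries and 0.974 to 1.12 in the other 13, so the choice of scaling moved every comparison with Cre(-): with total counts the median of all genes was 0.37 higher in KI on the log2 scale, against 0.03 with TMM. The labels were not checked by the targeted genes, since floxed alleles lose only some exons and the tables hold whole transcripts. Hif1a was at 163 to 198 CPM in Hif1α KO kidneys and 184 to 232 CPM in KI kidneys, and Epas1, which encodes Hif2α, at 136 to 149 CPM in Hif2α KO kidneys and 173 to 192 CPM in KI kidneys. The Y-linked gene Ddx3y did not exceed 0.186 TPM in any library.

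Bases upstream of the transcription starts were taken from RefSeq (GRCm38.p6) for the 7 members with an entry, in 9 windows of 250 bases before and 50 after each start. Stretches before a start, cut where they meet an annotated exon of the gene, are shown for Lrp2 and Cubn, the receptor pair that moved most, and for Amn and Clcn5, whose windows held a motif of the MiT/TFE family of transcription factors, to which TFE3 belongs. The Clcn5 stretch lies within the gene, before the start of the transcript Clcn5-201. Capitals mark every motif match, and each sequence reads 5′ to 3′ on the strand of the gene.
Lrp2, chr2:69586066-69586279, minus strand: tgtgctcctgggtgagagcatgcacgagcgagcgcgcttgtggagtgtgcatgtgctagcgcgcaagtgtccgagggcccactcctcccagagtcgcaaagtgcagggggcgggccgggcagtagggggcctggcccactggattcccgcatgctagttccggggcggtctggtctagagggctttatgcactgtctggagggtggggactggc
Cubn, chr2:13491877-13492126, minus strand: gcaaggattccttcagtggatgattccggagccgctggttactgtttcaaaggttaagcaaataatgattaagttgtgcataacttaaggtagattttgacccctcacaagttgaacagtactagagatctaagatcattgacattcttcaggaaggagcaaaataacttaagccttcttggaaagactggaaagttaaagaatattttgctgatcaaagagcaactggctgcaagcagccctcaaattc
Amn, chr12:111270846-111271094, plus strand: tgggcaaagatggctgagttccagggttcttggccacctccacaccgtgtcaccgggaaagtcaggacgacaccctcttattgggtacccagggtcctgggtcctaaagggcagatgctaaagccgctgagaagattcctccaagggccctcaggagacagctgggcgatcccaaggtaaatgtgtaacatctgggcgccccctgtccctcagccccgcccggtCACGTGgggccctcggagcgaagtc
Clcn5, chrX:7188715-7188964, minus strand: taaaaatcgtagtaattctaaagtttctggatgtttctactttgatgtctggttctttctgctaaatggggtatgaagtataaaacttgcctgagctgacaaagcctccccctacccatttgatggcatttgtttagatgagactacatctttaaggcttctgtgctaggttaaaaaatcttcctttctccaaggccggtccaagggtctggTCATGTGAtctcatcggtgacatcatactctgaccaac

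The M-box was searched as TCACATGA, TCACGTGA, TCATATGA and TCATGTGA on both strands and was found in the window of Clcn5 shown above, 38 bases before the start, and in 2.26% of all 32851 RefSeq promoter windows. The E-box CACGTG, the core of the CLEAR element, was found in the Amn window alone among the members, 26 bases before the start, and in 7.15% of all windows. The core of the hypoxia response element, ACGTG or GCGTG on either strand, was found for Amn, Dab2, Clcn5 and Lrpap1, in Amn within the E-box itself, and in 43.8% of all windows. The windows of Lrp2 and Cubn held none of these letters, and no member window held the HNF4 letters CAAAGTCCA, which occur in 0.475% of all windows. These matches describe letters only.

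In KI kidneys the receptors and their partners were lower than in Cre(-) kidneys, and megalin most of all. Lrp2 was reduced 15.6-fold, Cubn 4.25-fold and Lrpap1 4.09-fold, and Amn and Dab2 were reduced 2.17-fold and 2.15-fold. All 8 members were called lower at an adjusted p under 0.05 (edgeR, quasi-likelihood F-test, Benjamini-Hochberg adjustment over all genes), where 29.3% of all genes tested were called lower and 31.6% higher. The median log2 fold change of the members was -1.11 and that of all genes 0.03. Clcn5, Folr1 and Ocrl changed less, by -0.64, -0.49 and -0.20 on the log2 scale, and their calls depended on the scaling.

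**Figure D1:**
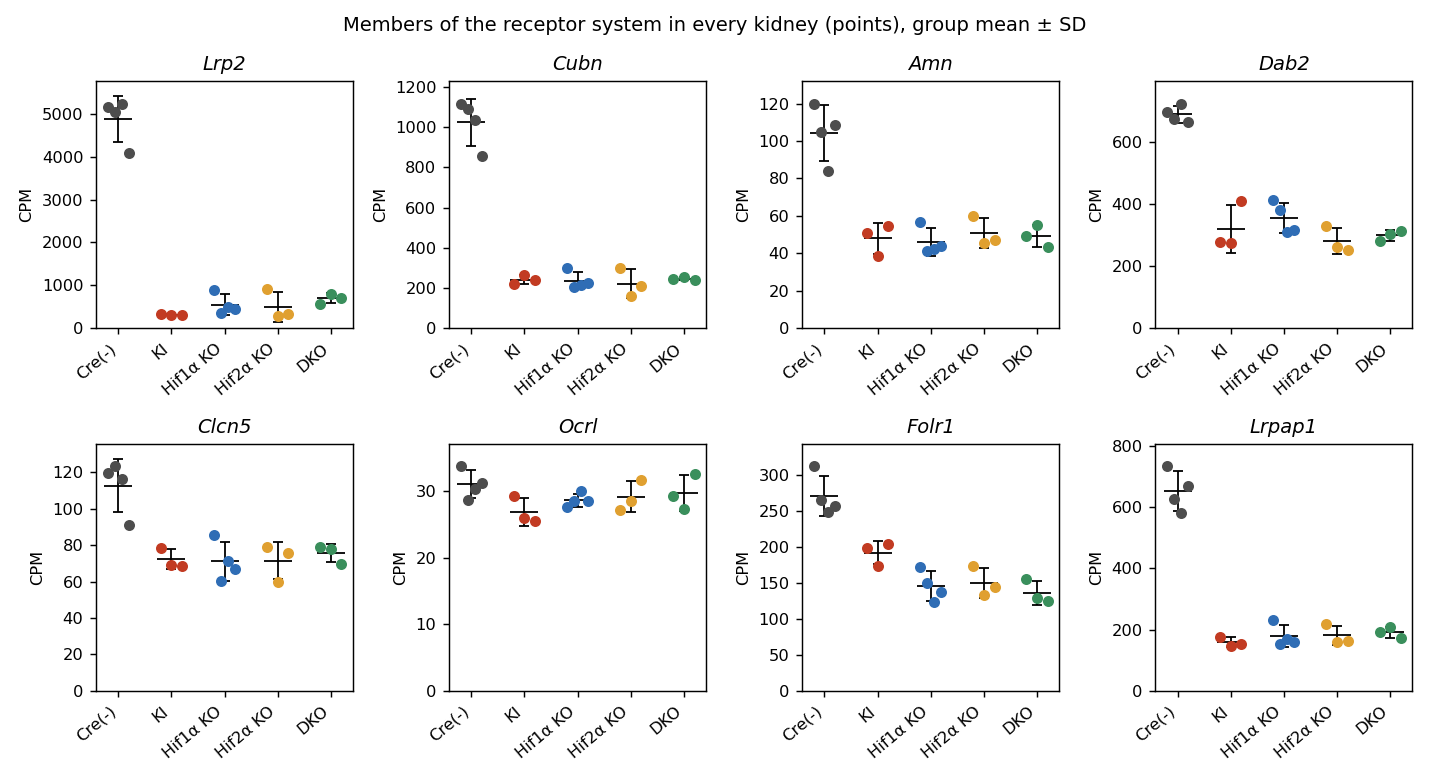
CPM (TMM scaling, linear axes from 0) of the 8 members in each kidney (points) of the 5 groups, with group mean and SD (bars). Lrp2 lay between 4098 and 5243 CPM in Cre(-) kidneys and did not exceed 909 CPM in any kidney with KSP-Cre, whereas the Ocrl ranges overlapped.

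Lrp2 was at 5161, 5043, 5243 and 4098 CPM in Cre(-) replicates 1 to 4 and at 329, 297 and 317 CPM in KI replicates 1 to 3. The groups did not overlap, and KI kidneys held 6.43% of the Cre(-) mean. The log2 fold change was -3.96 ± 0.41 (SE; adjusted p = 8.09e-07).

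Cubn, its partner in ligand binding, was at 1118, 1090, 1034 and 856 CPM in Cre(-) kidneys and at 221, 264 and 239 CPM in KI kidneys. The KI values were close together and all far below the lowest Cre(-) kidney. Its log2 fold change was -2.09 ± 0.19 (SE; adjusted p = 2.05e-07).

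Amn, which anchors cubilin, was at 120, 105, 83.7 and 108 CPM in Cre(-) kidneys and at 50.8, 38.8 and 54.8 CPM in KI kidneys, again without overlap. Its log2 fold change was -1.12 ± 0.16 (SE; adjusted p = 1.80e-05).

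Lrpap1, the chaperone, was at 734, 626, 582 and 668 CPM in Cre(-) kidneys and at 177, 148 and 153 CPM in KI kidneys. It fell by about as much as Cubn, with a log2 fold change of -2.03 ± 0.15 (SE; adjusted p = 3.36e-08).

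Dab2, the clathrin adaptor, was at 697, 674, 726 and 665 CPM in Cre(-) kidneys and at 279, 274 and 409 CPM in KI kidneys. KI replicate 3 stood above the other KI kidneys and still below every Cre(-) kidney. The log2 fold change was -1.11 ± 0.15 (SE; adjusted p = 8.56e-06).

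Clcn5 was at 119, 123, 116 and 91.2 CPM in Cre(-) kidneys and at 78.4, 69.3 and 68.5 CPM in KI kidneys, with no overlap. Folr1 was at 312, 265, 249 and 257 CPM in Cre(-) kidneys and at 199, 174 and 205 CPM in KI kidneys, also without overlap. Both were called lower with TMM (Clcn5 adjusted p = 5.40e-04, Folr1 adjusted p = 0.00348). With total counts the same values gave log2 fold changes of -0.29 and -0.15, with adjusted p = 0.0563 and 0.264, so the call on these 2 genes rested on the scaling. In TPM the direction of Clcn5 turned (0.01 on the log2(TPM + 1) scale) and Folr1 was at -0.01.

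Ocrl was at 33.7, 28.7, 30.4 and 31.3 CPM in Cre(-) kidneys and at 29.3, 25.9 and 25.5 CPM in KI kidneys. It was the sole member whose groups overlapped in this comparison; non-overlapping lower groups were seen for 7 members and for 27.7% of all genes. Its adjusted p was 0.0404, the call was lost without any of 5 single kidneys (Cre(-) replicates 1, 3 and 4 and KI replicates 2 and 3), with adjusted p up to 0.142, and with total counts the direction turned to 0.14 (log2; adjusted p = 0.172).

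**Figure D2:**
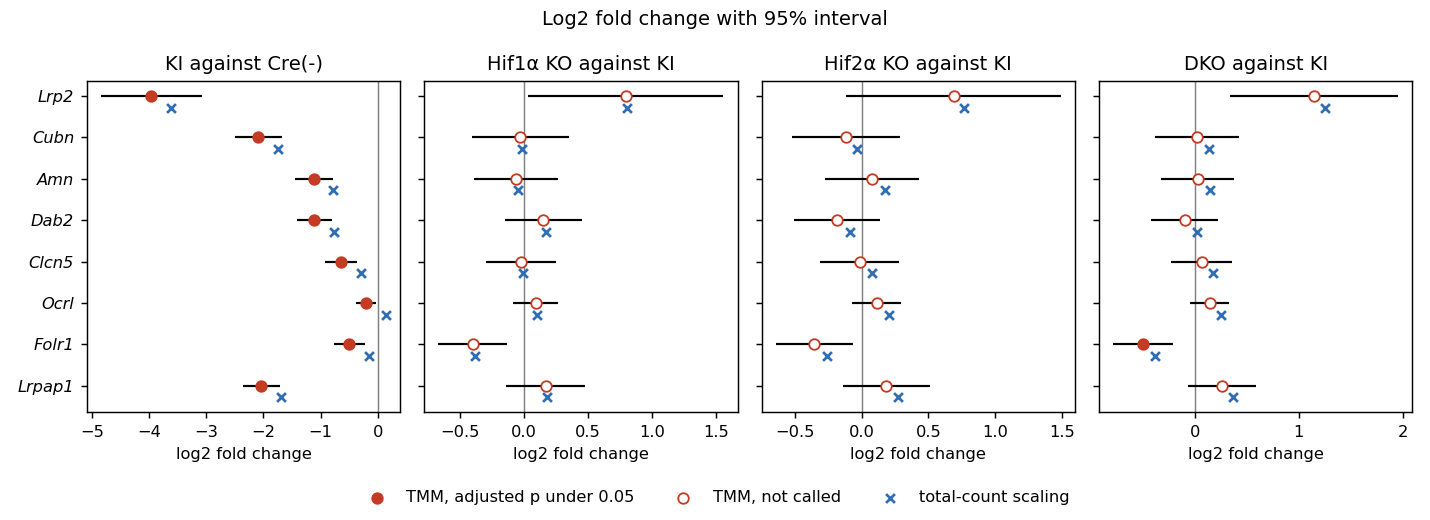
Log2 fold change of each member (circles, TMM scaling, filled where the adjusted p was under 0.05) with its 95% interval (lines), and the same with total-count scaling (crosses), in 4 comparisons with their own axes. In KI against Cre(-), Lrp2, Cubn, Lrpap1, Amn and Dab2 stayed well below 0 under both scalings, whereas Ocrl moved from -0.20 to 0.14.

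Compared per transcript, the proportions of the members' mRNAs differed between kidneys with and without KSP-Cre. In TPM, shares of all transcripts that correct for length and can be compared between genes, the order in Cre(-) kidneys was Lrpap1 (495 ± 40.4), Lrp2 (351 ± 48.6), Folr1 (323 ± 24.8), Dab2 (253 ± 23.5), Cubn (101 ± 14.5), Amn (85.7 ± 12.1), Clcn5 (15.9 ± 2.39) and Ocrl (9.96 ± 0.365; all mean ± SD, n = 4). The neighbours Lrp2 and Folr1 overlapped in range, as did Cubn and Amn. The sums include short and intron-retaining transcripts. In Cre(-) kidneys the short Lrpap1-205 held 277 TPM and the longer coding Lrpap1-201 157 TPM, against 349 TPM for Lrp2-201. Amn-202, which retains an intron, held 37.1 TPM, and Ocrl-202, with 5 exons, 6.00 TPM. In KI kidneys Folr1 led (321 ± 22.7), Dab2 (162 ± 26.7) and Lrpap1 (156 ± 23.7) overlapped, and Lrp2 (31.2 ± 2.12, n = 3) stood below Amn, in an overlapping pair with Cubn (32.7 ± 3.62). Clcn5 and Ocrl were lowest in all 5 groups and overlapped in KI, Hif1α KO and Hif2α KO kidneys.

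Cubn stood at 0.287 ± 0.0123 transcripts per Lrp2 transcript in Cre(-) kidneys and at 1.05 ± 0.150 in KI kidneys. The ratio was 0.640 ± 0.147 in Hif1α KO, 0.694 ± 0.214 in Hif2α KO and 0.490 ± 0.0808 in DKO kidneys (mean ± SD of TPM ratios). Amn per Lrp2 was 0.249 ± 0.0564 in Cre(-) and 1.77 ± 0.272 in KI kidneys, Dab2 per Lrp2 0.729 ± 0.0733 and 5.24 ± 1.13, and Lrpap1 per Lrp2 1.44 ± 0.280 and 4.99 ± 0.416. For each of the 4 ratios the 13 kidneys with KSP-Cre lay above the 4 without. An exact two-sided permutation test gave p = 0.00042 for each, the smallest that 2380 arrangements allow, with log2 differences of 1.23 for Cubn, 2.26 for Amn, 2.25 for Dab2 and 1.41 for Lrpap1. These ratios do not depend on the scaling of the libraries. All 4 have Lrp2, the member that fell most, as denominator, so their p-values are not independent of each other. Within the cubilin-amnionless pair, Amn per Cubn was 0.867 ± 0.183 in Cre(-) and 1.72 ± 0.455 in KI kidneys.

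**Figure D3:**
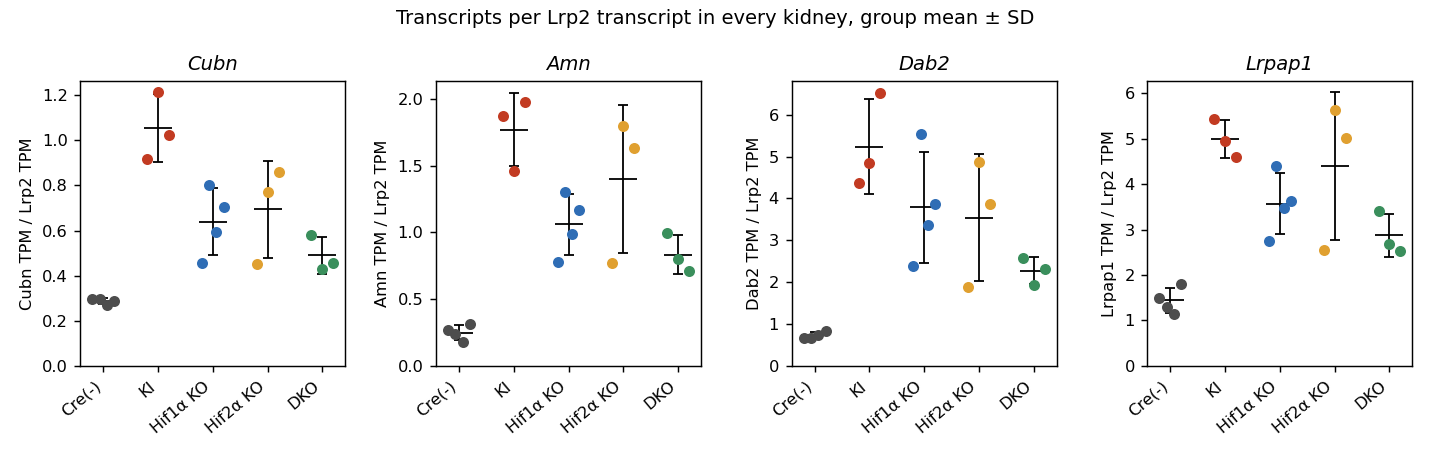
TPM of Cubn, Amn, Dab2 and Lrpap1 divided by Lrp2 TPM in each kidney (points), with group mean and SD (bars), on linear axes from 0. Every kidney with KSP-Cre lay above every Cre(-) kidney in the 4 ratios, and the KI kidneys had the highest group mean in each.

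Few members were called between the knockout groups and KI kidneys. Hif1α KO, Hif2α KO and DKO kidneys were each compared with the same 3 KI kidneys, so these comparisons share samples. edgeR called 0 of 8 members in Hif1α KO against KI (5.44% of all genes were called in either direction), 0 of 8 in Hif2α KO against KI (1.39% of all genes) and 1 of 8, Folr1, in DKO against KI (12.7% of all genes; 6.19% lower). Lrp2 and Folr1 are described in full because their values did not overlap with KI in Hif1α KO and in DKO; in Hif2α KO all 8 members overlapped. At an unadjusted p under 0.05 the counts were 2, 1 and 2, and the share of all genes under that threshold is not given here. DESeq2 called 1, 0 and 2 members. Of all 17011 genes it called 782 higher and 883 lower in Hif1α KO, 532 and 483 in Hif2α KO, and 1446 and 1459 in DKO.

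Lrp2 was at 896, 345, 495 and 442 CPM in Hif1α KO replicates 1 to 4. All were above the highest KI kidney, at 329 CPM, as for 8.96% of all genes, and replicate 1 stood far above the rest. The log2 fold change against KI was 0.79 (95% interval 0.03 to 1.55; adjusted p = 0.207), and 0.44 without Hif1α KO replicate 1.

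In Hif2α KO kidneys Lrp2 was at 909, 278 and 330 CPM. Replicate 1 alone lay clearly above the KI kidneys, and replicate 2 was below all of them. The log2 fold change was 0.69 (95% interval -0.11 to 1.49; adjusted p = 0.336), and -0.05 without replicate 1.

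In DKO kidneys Lrp2 was at 573, 807 and 708 CPM, each above every KI kidney. The DKO values did not overlap with KI, as for 16.5% of all genes that were higher. The log2 fold change was 1.15 (95% interval 0.34 to 1.96), and edgeR did not call it (adjusted p = 0.059). It was called by DESeq2 (adjusted p = 0.0497) and with total counts (adjusted p = 0.0344), and with 1 library left out the adjusted p ran from 0.063 to 0.174. With the proximal tubule score of the 17 markers given later as a covariate the direction turned, to -0.0971 in DKO and -0.58 in Hif1α KO. Every DKO and Hif1α KO kidney had a higher score than any KI kidney, so score and group cannot be told apart in these comparisons. The DKO mean of Lrp2 was still 14.2% of the Cre(-) mean.

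Folr1, the folate receptor, was at 172, 151, 123 and 138 CPM in Hif1α KO, at 174, 133 and 145 CPM in Hif2α KO and at 156, 129 and 125 CPM in DKO kidneys, against 199, 174 and 205 CPM in KI kidneys. Hif1α KO and DKO kidneys lay below the KI range, as for 10.3% and 17.2% of all genes, and Hif2α KO replicate 1 reached into it. The log2 fold change was -0.40 ± 0.13 in Hif1α KO (SE; adjusted p = 0.0777), -0.35 ± 0.14 in Hif2α KO (adjusted p = 0.175) and -0.49 ± 0.14 in DKO (adjusted p = 0.0284). The DKO call was lost with total counts (adjusted p = 0.0515) and without KI replicate 1 or 3 or DKO replicate 2 or 3 (adjusted p up to 0.114). Folr1 overlaps Anapc15 on the opposite strand, and the strand setting of the counting is not given in the sources used here.

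The remaining 6 members, including Cubn, Amn and the endosomal genes Clcn5 and Ocrl, had log2 fold changes between -0.19 (Dab2 in Hif2α KO) and 0.26 (Lrpap1 in DKO) against KI. Cubn was at 300, 204, 215 and 227 CPM in Hif1α KO, at 300, 158 and 209 CPM in Hif2α KO and at 244, 255 and 238 CPM in DKO kidneys, and each group overlapped the KI range. Its 95% intervals against KI were -0.41 to 0.35, -0.52 to 0.28 and -0.38 to 0.43 on the log2 scale, so changes of a size such as that between Cre(-) and KI lay outside them. The Lrpap1 intervals reached from -0.14 to 0.59 over the 3 comparisons, and its values from 154 to 230 CPM over the 10 knockout kidneys overlapped the KI range in each group. Over the same 10 kidneys Amn lay between 41.1 and 60.1 CPM, Dab2 between 253 and 414 CPM, Clcn5 between 59.8 and 85.7 CPM and Ocrl between 27.1 and 32.5 CPM, and in each knockout group these ranges overlapped that of KI. Hif1α KO replicate 1 and Hif2α KO replicate 1 had the highest Cubn, Amn, Dab2, Clcn5, Folr1 and Lrpap1 values of their groups as well as the highest Lrp2.

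Between Hif1α KO and Hif2α KO kidneys edgeR called no member (0 of 8, against 0.429% of all genes). DESeq2 called 0 members, and of all genes 340 higher and 197 lower. At an unadjusted p under 0.05 in edgeR there was 1 member. That 1 was Dab2, with a log2 fold change of 0.34 (95% interval 0.03 to 0.64; adjusted p = 0.279). Nor did the edgeR test of whether the DKO departs from the sum of the single knockouts call a member (0 of 8, and 0 of all genes). DESeq2 called 0 members, and of all genes 10 higher and 21 lower. At an unadjusted p under 0.05 in edgeR the count was 0, and the interval for Lrp2 was -1.43 to 0.76 (log2). Against Cre(-), 7 of 8 members were called lower in each knockout group, all but Ocrl, where 30.1%, 29.9% and 27.9% of all genes were called lower in Hif1α KO, Hif2α KO and DKO. With total counts Ocrl was instead called higher in all 3 (0.25, 0.35 and 0.40 on the log2 scale; adjusted p = 0.0161, 0.00284 and 0.00113), and Clcn5 stayed called lower in Hif1α KO (adjusted p = 0.033) but not in Hif2α KO or DKO (adjusted p = 0.142 and 0.417). That scaling called 9005, 9454 and 9781 of all 17011 genes higher and 2815, 2495 and 2202 lower. The medians of all genes were 0.38, 0.46 and 0.48, so Ocrl lay below the median gene in each comparison. In TPM Clcn5 was at 92.3%, 101% and 109% of the Cre(-) mean and Ocrl at 124%, 129% and 138%. On the log2(TPM + 1) scale the median of all genes was itself higher, by 0.35, 0.43 and 0.45. Lrp2 was reduced 8.98-fold, 9.66-fold and 7.02-fold in those 3 groups.

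Markers of proximal tubule, the segment that carries the receptor system, were lower together with the members in KI kidneys, but were higher in Hif1α KO and DKO than in KI kidneys where the members' median was near 0. In KI against Cre(-), 16 of 17 proximal tubule markers were lower and none higher, with a median log2 fold change of -4.43. They included the phosphate transporter Slc34a1 (-4.98), the glucose transporter Slc5a2 (-4.66), the water channel Aqp1 (-1.34) and the transcription factor Hnf4a (-2.04), while Cyp2e1 was not called (0.28, adjusted p = 0.760). Slc22a8 changed most, by -5.93. The summed level of the 17 genes was 11948 to 12900 TPM in Cre(-), 1103 to 1298 TPM in KI, 1667 to 3672 TPM in Hif1α KO, 1186 to 2941 TPM in Hif2α KO and 1926 to 3052 TPM in DKO kidneys, and none was at 0 throughout a group. Against KI, 9 of 17 were higher in Hif1α KO (median 1.39), 0 in Hif2α KO (median 0.75) and 9 in DKO (median 1.11), where the medians of the 8 members were 0.03, 0.03 and 0.05. With a replicate block the count in Hif1α KO was 2.

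The proximal tubule score, the mean log2 CPM of the 17 markers, was 9.50 to 9.56 in Cre(-), 5.43 to 5.97 in KI, 6.35 to 7.68 in Hif1α KO, 5.64 to 7.16 in Hif2α KO and 6.55 to 7.08 in DKO kidneys. The 2 highest scores among kidneys with KSP-Cre belonged to Hif1α KO replicate 1 and Hif2α KO replicate 1, the kidneys with the highest Lrp2. With the score as a covariate, KI against Cre(-) called 0 members, with a log2 difference of 0.07 for Lrp2, -0.36 for Cubn and -0.72 for Lrpap1, where 207 of all genes were called higher and 22 lower. Since the score separates Cre(-) from all other kidneys, it and the group cannot be told apart in that comparison. The same holds for Hif1α KO and DKO against KI, where every knockout kidney had a higher score than any KI kidney.

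**Figure D4:**
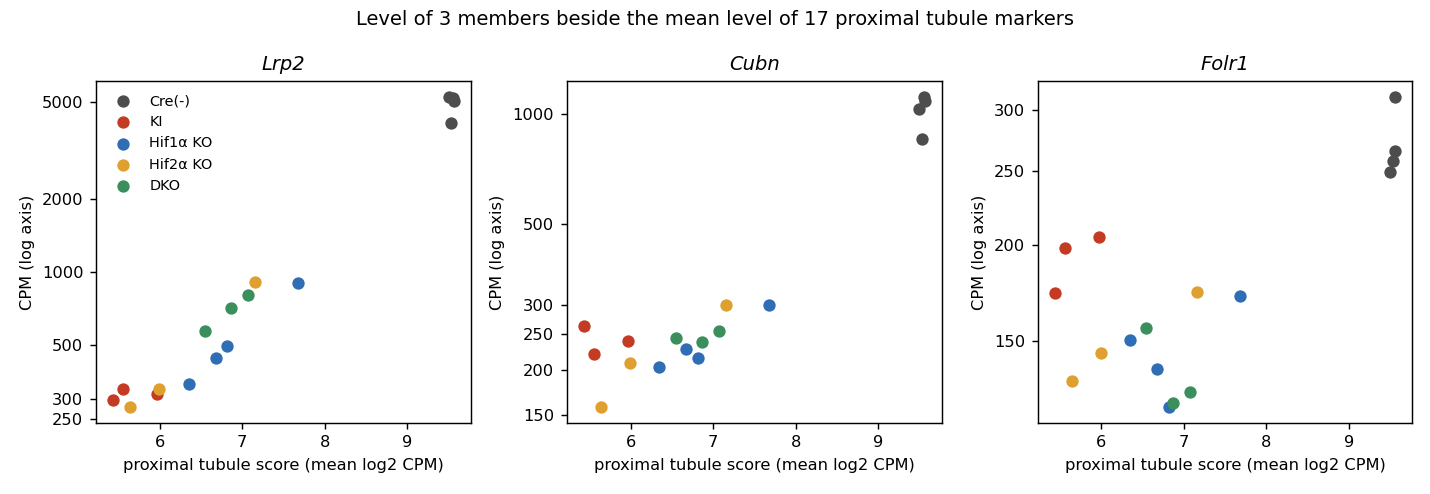
CPM (log axis) of Lrp2, Cubn and Folr1 in each of the 17 kidneys (points, coloured by group) beside the proximal tubule score, the mean log2 CPM of 17 marker genes. Cre(-) kidneys sit apart at 9.50 to 9.56, Lrp2 follows the score among the kidneys with KSP-Cre, and Folr1 is at 174 to 205 CPM in KI kidneys, whose scores of 5.43 to 5.97 are among the lowest.

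Other cell types moved as well in KI against Cre(-). Of the thick limb and distal tubule markers 6 of 6 were lower (Slc12a3 -3.76), as were 6 of 8 collecting duct markers (Slc26a4 -3.60) with 1 higher (Aqp3 1.27), 4 of 5 podocyte markers and 3 of 5 endothelial markers (Tek -0.997). Higher were 6 of 7 macrophage markers (Cd68 7.87), 4 of 5 fibroblast markers (Col1a1 2.21), 5 of 5 tubular injury genes (Lcn2 5.73), and 2 of 5 lymphocyte markers (Cd79a 3.38; 1 of 5 with a replicate block). Of 5 adipocyte markers 2 were called higher (Cidec 4.28) and 0 with a replicate block, and their summed level was 86.5, 1076 and 119 TPM in KI replicates 1 to 3 against 70.3 to 117 TPM in Cre(-) kidneys, so that KI replicate 2 alone stood high. The macrophage markers summed to 126 to 161 TPM in Cre(-) and 2260 to 2544 TPM in KI kidneys. Cd68 alone had a mean of 4.90 TPM in Cre(-) and 1630 TPM in KI kidneys, so it made up most of the KI sum. The other called macrophage markers rose less, from 1.52 (Adgre1) to 2.76 (Lyz2) on the log2 scale, and edgeR did not call Csf1r (-0.21, adjusted p = 0.0603). The part of these cell types in the members' values was not tested.

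The general machinery of endocytosis moved in both directions, as did all genes. With TMM 31.6% of all genes tested were called higher and 29.3% lower. With total counts 8546 of 17011 genes were called higher and 2991 lower. Of 19 genes for clathrin and its adaptors, 10 were higher and 5 lower in KI than in Cre(-) kidneys (median 0.26), from Hip1r, an actin linker of coated pits (0.60), to Ap2a2, a subunit of the AP-2 adaptor (-0.46). With total counts 13 of the 19 were higher and 0 lower. Of 22 genes for endosomes, sorting and recycling, 3 were higher and 12 lower with TMM (median -0.20) and 9 higher and 6 lower with total counts. The recycling protein Ehd3 had the largest decrease (-1.46) and the retromer subunit Vps26a the largest increase (0.53). Inpp5b, the paralog of Ocrl, was lower (-1.27 ± 0.11 SE; adjusted p = 8.15e-08), as were Clcn3 (-0.98) and Clcn4 (-0.42), relatives of Clcn5, although Clcn4 lost the call with total counts (adjusted p = 0.427). Appl1, which binds OCRL, was not called (0.03, adjusted p = 0.797).

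Of megalin's relatives in the LDL receptor family, 4 of 12 tested genes were higher and 4 lower, shares near those of all genes (31.6% and 29.3%). With total counts 7 were higher and 3 lower, where 8546 of all 17011 genes were called higher and 2991 lower. Lrp8 had the largest increase, from 0.577 ± 0.309 TPM in Cre(-) to 7.11 ± 1.05 TPM in KI kidneys (log2 2.95 ± 0.34 SE; adjusted p = 2.43e-06), and Lrp1 rose from 20.7 ± 2.53 to 65.4 ± 8.54 TPM (1.37 ± 0.17 SE; adjusted p = 5.89e-06). Per transcript, Lrp1 therefore stood below Lrp2 in Cre(-) kidneys and above it in KI kidneys. Vldlr had the largest decrease (-1.49).

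Of 13 genes that handle the vitamins delivered by these receptors, 2 were higher and 7 lower (median -0.61), where 31.6% of all genes were higher and 29.3% lower. Tcn2, the carrier of vitamin B12 that megalin takes up, fell from 934 ± 57.7 to 407 ± 10.1 TPM (-1.66 ± 0.16 SE; adjusted p = 3.13e-07), and the folate transporter Slc46a1 from 29.0 ± 2.45 to 12.0 ± 3.06 TPM (-1.75 ± 0.15 SE; adjusted p = 1.04e-07). Cyp24a1, which breaks down vitamin D, had the largest decrease (-3.13), from 35.3 ± 28.1 to 5.60 ± 2.66 TPM. The retinol carrier Rbp4 had the largest increase (1.83), from 1.42 ± 0.706 to 7.03 ± 6.68 TPM. Cyp24a1 in Cre(-) and Rbp4 in KI kidneys thus varied widely within the group, and with a replicate block 1 vitamin gene was called higher. The transcobalamin receptor Cd320 (-0.32, adjusted p = 0.0724) and Folr2 (0.44, adjusted p = 0.128) were not called.

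**Figure D5:**
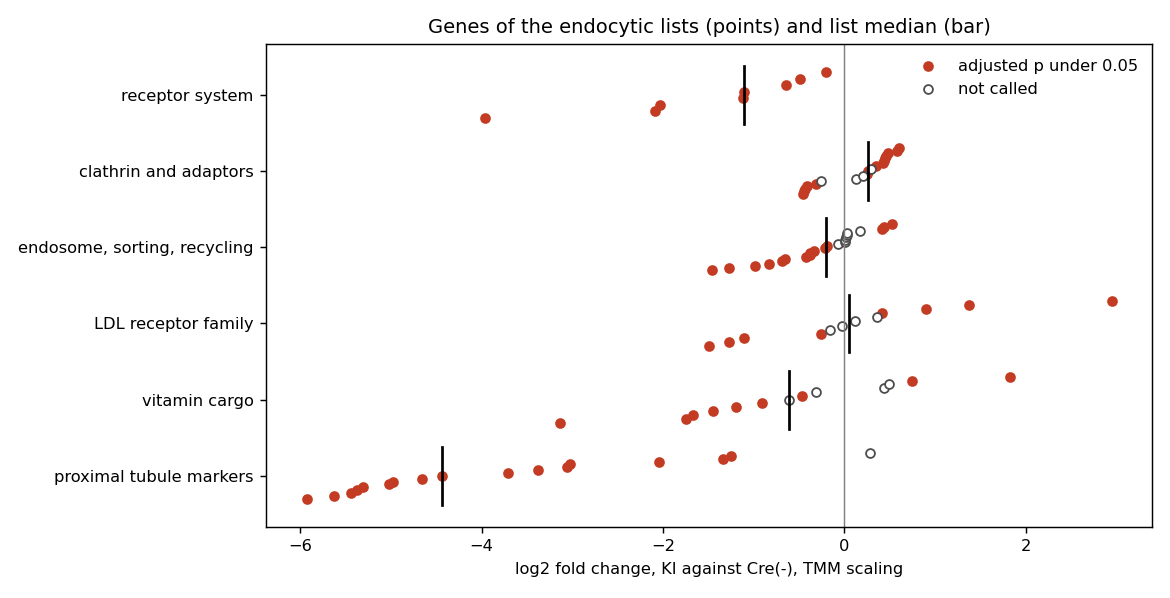
Log2 fold change in KI against Cre(-) (TMM scaling) of each tested gene (points, filled where the adjusted p was under 0.05) of the receptor system, 4 endocytic lists and the proximal tubule markers, with the list median (bar). The receptor system (median -1.11) and the proximal tubule markers (median -4.43) lie to the left of 0, and the clathrin list (median 0.26) straddles it.

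Against KI between 0 and 3 genes of each endocytic list were called in each knockout group. Of all genes, 5.44% were called in either direction in Hif1α KO, 1.39% in Hif2α KO and 12.7% in DKO kidneys. No list was tested against these shares. In Hif1α KO kidneys 0 of 19 clathrin genes, 2 of 22 endosomal genes (Inpp5b 0.40, Vps26a -0.26), 3 of 12 LDL receptor family genes (among them Sorl1 0.54 and Lrp3 -0.45) and 1 of 13 vitamin genes (Slc19a1 0.57) passed the test. In Hif2α KO kidneys Sorl1 (0.46) and Ttr (-1.08) passed, and in DKO kidneys Sorl1 (0.75), Lrp3 (-0.47), Vps26a (-0.30) and Ttr (-0.82). With a replicate block 0 endosomal genes passed in Hif1α KO, and 0 LDL receptor family and 0 vitamin genes in Hif2α KO. With total counts Sorl1 alone of the 4 stayed past the threshold in DKO. Sorl1, a sorting receptor of the same family, had been 1.11 lower in KI than in Cre(-) on the log2 scale. Sorl1, Lrp3, Slc19a1 and Ttr are named because they were among these calls, after their values were seen.

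Within the 13 kidneys with KSP-Cre, some members varied together and others did not. Pearson's r of log2 CPM was 0.88 between Lrp2 and Lrpap1, 0.70 between Lrp2 and Cubn, 0.64 between Lrp2 and Clcn5, 0.55 between Lrp2 and Amn, 0.33 between Lrp2 and Dab2, 0.07 between Lrp2 and Ocrl and -0.21 between Lrp2 and Folr1. Among Lrp2, Cubn, Amn, Clcn5 and Lrpap1 every pair lay between 0.50 and 0.88. Pairs with Dab2, Ocrl or Folr1 ran from -0.57 (Ocrl and Folr1) to 0.43 (Amn and Folr1). This division was made after the values were seen. Of all other genes over the same 13 kidneys, those most like Lrp2 were Cyp2j11 (r = 0.991), Lactb2 (0.972) and Abat (0.970). For Cubn they were Ivd (0.926), Rmdn3 (0.906) and Dbt (0.903), for Amn Abcc6 (0.869), Sdhc (0.863) and Cope (0.858), and for Lrpap1 Fbxo36 (0.949), Scrn2 (0.937) and Bdh1 (0.936). Dab2 was most like Vdac1 (0.937), Zfp874b (0.936) and Paip2 (0.923), Clcn5 like Qdpr (0.866), Acad8 (0.860) and Slc25a11 (0.852), Ocrl like Frem2 (0.926), Neurl1a (0.912) and Rcor2 (0.912), and Folr1 like Dpp7 (0.932), Cpn1 (0.929) and Vipas39 (0.927). These are the highest of many coefficients over kidneys of 4 groups that share libraries, and are given as a description.

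Transcript estimates were steady for the large receptors and less so for the others. Lrp2-201, with 79 exons, made up 98.5% to 99.5% of Lrp2 TPM in every kidney, and Cubn-201, with 67 exons, 99.6% to 100% of Cubn TPM. Amn was divided between the coding Amn-201 (56.7% ± 4.32 in Cre(-), 55.0% ± 7.32 in KI; mean ± SD) and the intron-retaining Amn-202. The short Lrpap1-205 (716 nt) held 55.8% ± 2.98 of Lrpap1 TPM in Cre(-) and 55.2% ± 0.703 in KI kidneys, and the longer coding Lrpap1-201 (2981 nt) was at 157 TPM in Cre(-) and 58.9 TPM in KI kidneys. Of Clcn5, the leading Clcn5-201, which starts at the window with the M-box, held 92.3% ± 2.31 in Cre(-) and 82.7% ± 4.96 in the 13 other kidneys (exact two-sided permutation test, p = 0.0021, 8 genes tested), but with expected counts the difference was -0.78 percentage points (exact permutation p = 0.0529). Short-read estimates of such minor transcripts are uncertain.

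Dab2 is known in a long form that carries the clathrin-binding part and a spliced shorter form. The 2 transcripts with 2235 to 2298 coding bases held 8.77% ± 2.00 of Dab2 TPM in Cre(-) kidneys, 17.6% ± 3.39 in KI, 15.5% ± 3.44 in Hif1α KO, 19.2% ± 2.42 in Hif2α KO and 14.0% ± 2.15 in DKO kidneys. In TPM the long class was at 21.9 ± 3.60 in Cre(-) and 28.2 ± 3.52 in KI kidneys. The 3 transcripts with 1581 to 1644 coding bases went from 207 ± 14.4 to 121 ± 27.7 TPM, so in TPM the shorter class was lower in KI and the mean of the long class was not. On the log2(TPM + 1) scale the median of all genes was itself 0.38 higher in KI than in Cre(-). These classes were set after the transcript values were seen, and no test was made of them.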

How the data were processed

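The authors sequenced kidney RNA from 17 mice (5 groups) as stranded, poly(A)-selected single-end libraries. Per the labels and the methods, reads were trimmed with Trim Galore 0.6.6 and cutadapt 2.5, aligned with STAR 2.7.9a and quantified with RSEM; the methods name hg38 for alignment and hg38 or GRCm38 for the annotation, and the deposited tables list mouse transcripts. The authors deposited expected counts (fractional estimates) for each transcript, and TPM, which is normalized for length and library total; their own differential expression used DESeq2.

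Of 119353 transcripts 116770 (97.8%) were matched to GENCODE M21 (GRCm38), holding 99.04% to 99.24% of each library's counts. Values were summed per gene and counts rounded. Genes were tested mainly by the quasi-likelihood F-test of edgeR (version 4.0.16 in R 4.3.3; TMM, filterByExpr with a minimum count of 10, a single fit of all libraries), with p-values adjusted by Benjamini-Hochberg over 17011 genes at 0.05. Alternatives were DESeq2 1.42.0, other scalings and filters, limma 3.58.1 on log2(TPM + 1) and log2(TPM + 0.1), a replicate block, a proximal tubule score as covariate and leaving out each library. List counts under other scalings, DESeq2 and the block were added after seeing the data. Fits were tested on simulated data. Tables and figures used Python 3.11.15, pandas 2.3.3 and matplotlib 3.10.9.

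Depth was 16504419 to 24668827 counts per library; the 3-count floor covers counting error only. The labels do not say that replicates came from separate litters or days, so p-values measure the spread between these mice. The members and gene lists were chosen with earlier results of these data known. Named genes were the 8 members, for each list the called gene with the largest change in each direction in KI against Cre(-) at a mean of at least 1 TPM, 17 genes fixed by name (some genes under this rule are not reported here), and for each member the 3 genes with the highest r over the 13 kidneys with KSP-Cre.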

Additional observations from a re-analysis of the deposited data

Results flagged for a closer look

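In Hif1α KO kidneys Amn, the membrane anchor of cubilin, was at 56.8 CPM in replicate 1 and at 41.1, 42.3 and 43.8 CPM in the other 3, a gap large enough against the range of the group to single out the highest kidney. The same kidney had the highest Lrp2, Cubn, Dab2, Clcn5, Folr1 and Lrpap1 values and the highest proximal tubule score of its group (7.68). In the 16 groups of 4 values that were examined, chance alone would single out about 1 in 20. Without this kidney the log2 fold change of Amn against KI was -0.18, and -0.07 with it, and neither was called.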

How the results depend on the processing

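The fall of Lrp2, Cubn, Amn, Dab2 and Lrpap1 in KI against Cre(-) kept its direction and call under every alternative except the proximal tubule score as covariate, which cannot be told apart from the group there. Of the 8 members, 5 were called with total counts, with limma on log2(TPM + 1) or log2(TPM + 0.1) and with a minimum log2 fold change of 1, and 0 with the score, whereas leaving out 1 library gave 7 to 8. The backgrounds of these counts differ. Of all 17011 genes, 2991 were called lower and 8546 higher with total counts, 2458 and 8843 with log2(TPM + 1), and 2466 and 9021 with log2(TPM + 0.1). In the main fit 4981 were called lower and 5381 higher. The share with the minimum fold change is not given here. With the score as covariate, 2 members were called in Hif1α KO and 0 in Hif2α KO and in DKO against Cre(-), and with the minimum fold change 4 were called in Hif1α KO against Cre(-). With the score 837, 422 and 724 of all genes were called higher in these 3 groups and 324, 45 and 211 lower. Against KI, 1 member was called in Hif1α KO by DESeq2 and by limma with either pseudocount. In DKO 2 were called by DESeq2, limma and the replicate block, 0 with the leading transcript alone or the minimum fold change, and 0 to 1 with 1 library left out. Of all genes, limma on log2(TPM + 1) called 251 higher and 380 lower in Hif1α KO and 1206 and 520 in DKO. The block called 914 higher and 798 lower in DKO. Except for these settings, the cause was not tested.

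Directions turned as follows (log2). With the proximal tubule score, KI against Cre(-) gave 0.0703 for Lrp2, 0.20 for Amn, 0.28 for Clcn5 and 0.25 for Folr1. Hif1α KO against KI gave -0.58 for Lrp2, -0.17 for Dab2 and -0.26 for Lrpap1, and Hif2α KO gave -0.17 for Lrp2, -0.13 for Amn and -0.0368 for Lrpap1. DKO gave -0.0971 for Lrp2, -0.50 for Cubn, -0.36 for Amn, -0.21 for Clcn5 and -0.13 for Lrpap1. The score also separated KI from Hif1α KO and from DKO kidneys, so it cannot be told apart from the group there. In TPM, with a pseudocount of 1 and of 0.1, KI against Cre(-) gave 0.0136 and 0.0142 for Clcn5 and 0.23 and 0.25 for Ocrl, Hif2α KO against KI 0.0049 and 0.0056 for Clcn5, and DKO 0.0266 and 0.0268 for Dab2. With total counts Ocrl was at 0.14 in KI against Cre(-), Clcn5 at 0.0746 in Hif2α KO and Dab2 at 0.0229 in DKO against KI. With no filter Clcn5 was at 0.00037 in Hif2α KO. With the leading transcript alone Ocrl was at -0.0044 in Hif1α KO and -0.0060 in Hif2α KO, and Dab2 at 0.11 in Hif2α KO and 0.20 in DKO.

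With 1 library left out, values against KI ranged in Hif1α KO from -0.17 to 0.0401 for Cubn, -0.20 to 0.0386 for Amn and -0.13 to 0.0452 for Clcn5. In Hif2α KO they ranged from -0.0453 to 0.98 for Lrp2, -0.40 to 0.0758 for Cubn, -0.0560 to 0.18 for Amn, -0.31 to 0.0283 for Dab2 and -0.0914 to 0.0989 for Clcn5, and in DKO from -0.0344 to 0.0956 for Cubn, -0.10 to 0.13 for Amn and -0.20 to 0.12 for Dab2.

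With expected counts in place of TPM, the share of the leading transcript differed by -0.78 points for Clcn5 and -0.67 for Ocrl. With total counts, an alternative for the lists chosen after seeing the data, 0 clathrin genes were lower, 9 endosomal genes higher and 6 lower, and 7 LDL receptor family and 4 vitamin genes higher, in KI against Cre(-). The same scaling called 8546 of all 17011 genes higher and 2991 lower.

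The replicate numbers did not pair the samples: same-numbered libraries of different groups deviated with r from -0.22 to 0.25 (median -0.034, 4 of 31 above 0.1). With the replicate block Ocrl lost its call in KI against Cre(-) (adjusted p = 0.0581), Lrp2 gained one in DKO against KI (adjusted p = 0.0466), Clcn5 was at 0.0362 in Hif1α KO against KI, and 1 vitamin gene was higher. Against KI the block left 2 of 17 proximal tubule markers higher in Hif1α KO (9 without it), 0 endosomal genes called in Hif1α KO (2 without it), and 0 LDL receptor family and 0 vitamin genes in Hif2α KO (1 and 1 without it). DESeq2 size factors in edgeR changed no member's call.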
